A study of Homo sapiens with 6 samples.

Results

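RNA was compared between MUTZ3 cells that made a PLDLS peptide and MUTZ3 cells that made a PLASS peptide. This is 4 of the 6 libraries of the series, chosen by their titles: PLDLS replicates 1 and 2 against PLASS replicates 1 and 2. They were paired by the experiment number in the deposited tables, which equals the replicate number, so experiment 1 holds PLDLS 1 and PLASS 1 and experiment 2 holds PLDLS 2 and PLASS 2. MUTZ3 is a human acute myelomonocytic leukaemia line with an inversion in chromosome 3. All cells were transduced with a retrovirus, were collected at 72 h and grew in αMEM with 20% FCS and 20% medium conditioned by 5637 cells, a bladder carcinoma line. The PLDLS construct was p50MX-3xFLAG-3xNLS-4xPLDLS-Zeo and the PLASS construct p50MX-3xFLAG-3xNLS-4xPLASS-Zeo, so the 2 groups shared vector, tag, nuclear localisation signal and 4 peptide copies. PLASS carries the changes D3A and L4S, counted from 1 at the first residue of PLDLS. The other 2 libraries, empty vector (EV) 1 and 2, carried p50MX-3xFLAG and p50MX-Zeo, which are different vectors. In the fit of all 6 libraries they served mainly the estimate of spread, and their levels are given beside many of the genes. With a peptide library left out, they also help to set the difference between experiments. Such fits therefore take in the difference of the 2 vectors.

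PLDLS is a short motif by which transcription factors hold the CTBP corepressors, which bring chromatin-modifying enzymes to DNA. EVI1, a product of the MECOM gene in the inverted region of such leukaemias, holds CTBP through motifs of this kind. Per the labels, the PLDLS peptide blocks the contact of EVI1 with CTBP and PLASS does not. The contact itself and the peptides' amounts were not measured here. All cells came from 1 line, and the labels do not name separate cultures for the replicates. The p-values therefore reflect the spread among the 6 libraries alone, which may be technical.

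The PLDLS libraries held 16437109 and 5582078 estimated reads and the PLASS libraries 20132920 and 12777337, so low genes were least precise in PLDLS 2. EV held 35800826 and 18932337. Of 13 genes listed as marks of a myelomonocytic leukaemia, 11 had at least 2 CPM, reads scaled to library size with TMM. CD14 was at 0.811 to 2.02 CPM over the 4 peptide libraries and FLT3 at 0 to 0.186 CPM, both below that level in their means. The summed level of the list was 3423 to 3639 CPM with PLDLS and 3105 to 3442 with PLASS. Markers of other cells summed to at most 2.46 CPM for T cells (5 of 6 markers measured), 9.77 for B cells, 8.11 for epithelial cells, 0.599 for erythroid cells and 0.557 for fibroblasts. MS4A1, EPCAM, HBA1, HBB, ALAS2, COL3A1 and DCN were at 0 in all 4. In bulk RNA, fewer cells of a type and less RNA per cell cannot be told apart.

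With the experiment as a block, edgeR called 297 of 14630 tested genes between PLDLS and PLASS, which is 2.03% of them. Of these, 222 (1.52%) were higher and 75 (0.513%) lower with PLDLS. A gene was called at a Benjamini-Hochberg adjusted p under 0.05 over all tested genes, and every adjusted p below is of this test unless another tool is named. Among the 12078 genes with a mean of at least 2 CPM over the 4 peptide libraries, 272 were called (2.25%), 202 higher and 70 lower. All 272 moved the same way in both experiments. The fit that chose them combines the same 2 differences, so this agreement follows largely from the choice. The genes called higher summed to 19972 and 19614 CPM in PLDLS 1 and 2 and to 9735 and 9766 CPM in PLASS 1 and 2. Those called lower summed to 1575 and 1797 CPM with PLDLS and to 3245 and 3704 with PLASS. These sums are of genes chosen by the same contrast and describe its size only. The median absolute log2 difference was 1.27 for genes called higher and 1.19 for genes called lower, and 140 and 52 of them differed by more than 2-fold. At the edge of the level minimum, 1 of 167 genes between 2 and 2.2 CPM was called, and 3 of 178 genes between 1.8 and 2 CPM.

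The number of calls rested on the block. Without it edgeR called 0 of the 14630 genes, with 721 at an unadjusted p under 0.05, limma-voom called 0 and DESeq2 118. Of the 272 genes, 250 had an unadjusted p under 0.05 without the block, and the sign of none of the 272 turned. With the block and 1 library left out, of the 272 genes 75 kept their call without PLASS 1, 160 without PLASS 2, 109 without PLDLS 1 and 118 without PLDLS 2, while 272 kept it without EV 1 or EV 2. In all, 49 of the 272 were called by each of the 15 other fits with the block that tested them, 44 higher and 5 lower. Counts of called genes by setting are in the bar chart.

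The 2 experiments were set side by side for all 12078 genes. The log2 difference of PLDLS from PLASS had an SD over genes of 0.398 in experiment 1 and 0.467 in experiment 2, with medians of 0.00070 and -0.00060. Across these genes the experiments' differences correlated at a Pearson r of 0.499, and at 0.58 over the 7604 genes with at least 20 CPM. Genes are not independent replicates, and each experiment holds 1 library per group, so no p is given. A total of 141 genes were over 2-fold higher in both experiments and 52 over 2-fold lower in both, and 7 were over 2-fold in opposite directions. Of the 141 and the 52, 114 and 37 were called. Both PLDLS libraries lay above both PLASS libraries in 1851 genes (15.3%) and below them in 1676 (13.9%). Of the genes called, 192 of 202 higher and 64 of 70 lower were without overlap, and in the other 16 both groups shifted between experiments.

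Genes with the largest rises took in several cell surface and secreted proteins. ITGB7 (chromosome 12, 53191323 to 53207251 in GRCh38), the integrin beta 7 subunit by which leukocytes adhere, was at 31.5 and 45.5 CPM with PLDLS, 5.87 and 6.25 with PLASS and 6.48 and 5.47 with EV, in the order experiment 1 then 2 used throughout. Both PLDLS libraries lay above the other 4. Its log2 difference of PLDLS from PLASS was 2.64 ± 0.23 (SE, adjusted p = 0.00409), and 2.40 and 2.84 within the 2 experiments. CD207 (chromosome 2, 70824130 to 70835816), the langerin lectin of Langerhans cells, was at 20.2 and 20.04 CPM with PLDLS, 3.99 and 2.595 with PLASS and 2.24 and 3.04 with EV. The 2 PLDLS libraries nearly coincided, and its log2 difference was 2.58 ± 0.26 (adjusted p = 0.00574). PMP22 (chromosome 17, 15229779 to 15265326), a membrane protein best known from myelin, was at 36.0 and 31.2 CPM with PLDLS, 4.66 and 4.38 with PLASS and 5.11 and 3.98 with EV. It rose by a log2 difference of 2.90 ± 0.19 (adjusted p = 0.00204, 2.92 and 2.80 by experiment). In the other direction HLA-DOA (chromosome 6, 33004182 to 33009591), a modulator of peptide loading onto MHC class II, was at 5.93 and 7.05 CPM with PLDLS, 29.2 and 26.3 with PLASS and 31.1 and 28.3 with EV. Both PLDLS libraries lay below the other 4, at a log2 difference of -2.13 ± 0.19 (adjusted p = 0.00417). The calls of these 4 genes held in all 15 other fits with the block.

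The 250 bases before the start of 3 of these genes are shown, 5′ to 3′ on the gene's own strand, from RefSeq (GRCh38.p14), since their groups stood far apart and each holds a word that is read by a myeloid factor. Capitals mark matches on either strand to GAGGAA, the core of PU.1 sites (TTCCTC on the other strand), or AGATAA, the core of GATA sites, which did not overlap in these 3.
CD207 (chr2:70835817-70836066, minus strand): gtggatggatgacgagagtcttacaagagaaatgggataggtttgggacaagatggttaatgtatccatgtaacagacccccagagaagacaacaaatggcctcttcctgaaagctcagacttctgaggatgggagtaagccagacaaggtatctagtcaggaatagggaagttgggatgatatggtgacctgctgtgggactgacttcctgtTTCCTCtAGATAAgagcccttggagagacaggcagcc
ITGB7 (chr12:53207252-53207501, minus strand): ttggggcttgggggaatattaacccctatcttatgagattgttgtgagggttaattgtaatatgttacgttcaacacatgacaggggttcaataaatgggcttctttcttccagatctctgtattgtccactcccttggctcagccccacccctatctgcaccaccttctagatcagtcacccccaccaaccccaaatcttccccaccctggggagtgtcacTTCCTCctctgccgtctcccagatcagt
HLA-DOA (chr6:33009592-33009841, minus strand): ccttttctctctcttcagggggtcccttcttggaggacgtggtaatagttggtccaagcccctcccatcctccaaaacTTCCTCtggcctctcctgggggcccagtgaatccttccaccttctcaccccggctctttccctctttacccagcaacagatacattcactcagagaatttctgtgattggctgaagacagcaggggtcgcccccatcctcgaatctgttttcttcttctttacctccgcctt
CD207 held both words and the others GAGGAA alone. Of the genes with at least 2 CPM, 9682 matched a RefSeq entry, among them 155 genes called higher and 55 called lower. GAGGAA was in 53 of 155 windows of genes called higher (34.2%), 15 of 55 of genes called lower (27.3%), 23.2% of the 9682 and 23.4% of all 27305 windows of this length. AGATAA was in 8.39%, 5.45%, 4.51% and 9.37% in the same order. TTGCNNAA, a word of C/EBP sites, was in 12.3%, 7.27%, 6.06% and 9.13%, and AAANNGAAA, a core of interferon response elements, in 8.39%, 12.7%, 6.14% and 9.28%. Words were searched on both strands and may overlap one another. A match is a run of letters and not a measured site, and no test was made.

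The remaining genes of the 14 with the largest rises were spread over many roles. ADAMTS8, a secreted metalloprotease, was at 6.11 and 4.82 CPM with PLDLS, 0.625 and 0.649 with PLASS and 0.606 and 0.718 with EV. SP6, a transcription factor of the Sp family, was at 156 and 132 CPM with PLDLS, 34.9 and 13.5 with PLASS and 28.2 and 6.63 with EV. SP6 shifted between the experiments in all 3 groups, and both PLDLS libraries still lay above the other 4. SLAMF1, a receptor of the SLAM family of lymphoid and myeloid cells, was at 38.2 and 24.9 CPM with PLDLS, 6.49 and 5.19 with PLASS and 5.399 and 10.8 with EV. PRF1, which encodes the pore-forming perforin of cytotoxic cells, was at 11.1 and 8.72 CPM with PLDLS, 2.02 and 2.03 with PLASS and 2.502 and 1.05 with EV. NCR2, the activating receptor NKp44, was at 64.4 and 62.7 CPM with PLDLS, 17.6 and 9.41 with PLASS and 22.2 and 9.503 with EV. For these 5 genes the log2 differences were 3.12 ± 0.35, 2.76 ± 0.35, 2.44 ± 0.35, 2.30 ± 0.32 and 2.30 ± 0.27 (adjusted p = 0.00697, 0.00976, 0.0134, 0.0114 and 0.00837). GALNT3, an enzyme that starts mucin-type glycosylation, was at 6.71 and 5.01 CPM with PLDLS and 1.11 and 1.22 with PLASS, and SH3PXD2B, a scaffold of podosomes, at 5.63 and 4.08 CPM with PLDLS and 1.298 and 0.406 with PLASS. KIAA0040 was at 11.3 and 11.5 CPM with PLDLS and 1.68 and 2.68 with PLASS, LOC613266 at 3.35 and 4.64 CPM with PLDLS and 0.288 and 0.73 with PLASS and LOC101927166 at 4.01 and 4.27 CPM with PLDLS and 0.769 and 0.73 with PLASS. Their log2 differences lay between 2.37 and 3.04. HSPA7, a transcribed pseudogene of the HSP70 family, was at 23.4 and 12.6 CPM with PLDLS and 4.95 and 2.76 with PLASS. Its log2 difference was 2.22 ± 0.20 (adjusted p = 0.00417). Its sequence is close to other HSP70 genes, so its count is uncertain. PLDLS lay above PLASS without overlap in all of these genes.

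Of these genes, calls ended with 1 library left out (adjusted p given) without PLASS 1 for PRF1 (0.0661) and LOC613266 (0.0812), without PLDLS 1 for SLAMF1 (0.0737) and SH3PXD2B (0.0725) and without PLASS 1 or PLDLS 1 for GALNT3 (0.0788 to 0.0959) and LOC101927166 (0.0576 to 0.0872). The difference of SP6 became 3.48 without PLDLS 1 and 2.0 without PLDLS 2, that of SH3PXD2B 3.30 without PLASS 1, that of LOC613266 3.65 without PLASS 2, and that of SLAMF1 1.83 without PLDLS 1.

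The 14 genes with the largest falls had many roles. MARCKS, an actin-binding substrate of protein kinase C, was at 0.899 and 1.48 CPM with PLDLS, 8.22 and 7.54 with PLASS and 6.24 and 12.9 with EV. PREX2, an exchange factor for Rac, was at 1.68 and 2.97 CPM with PLDLS, 12.2 and 11.6 with PLASS and 15.3 and 16.1 with EV. FLNC, the actin crosslinker filamin C, was at 2.396 and 4.27 CPM with PLDLS, 10.8 and 16.95 with PLASS and 10.6 and 10.3 with EV. In each of these 3 genes both PLDLS libraries lay below the other 4, with log2 differences of -2.83 ± 0.39, -2.50 ± 0.27 and -2.12 ± 0.27 (adjusted p = 0.011, 0.00603 and 0.00976). SIGLEC1, the sialic acid receptor of macrophages, was at 0.419 and 1.48 CPM with PLDLS, 3.702 and 5.68 with PLASS and 3.56 and 3.32 with EV. NOG, the secreted BMP antagonist noggin, was at 0.539 and 1.11 CPM with PLDLS, 3.89 and 3.57 with PLASS and 3.397 and 1.99 with EV. SIGLEC1 and NOG differed by -2.60 ± 0.45 and -2.45 ± 0.45 (adjusted p = 0.0261 and 0.0335). COL6A1, a chain of collagen VI, was at 2.52 and 2.23 CPM with PLDLS, 7.02 and 12.2 with PLASS and 3.82 and 7.85 with EV, and its partner chain COL6A2, which adjoins it on chromosome 21 and is named here after its values were seen, at 9.41 and 11.3 CPM with PLDLS, 26.2 and 33.3 with PLASS and 18.8 and 24.4 with EV. Both chains fell, by log2 differences of -1.81 ± 0.30 and -1.51 ± 0.17 (adjusted p = 0.0218 and 0.00697).

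VNN2, a pantetheinase on the surface of neutrophils, was at 10.2 and 5.94 CPM with PLDLS, 37.8 and 15.8 with PLASS and 36.1 and 24.4 with EV, and its difference was -1.69 ± 0.22 (adjusted p = 0.00976). CSF1, the growth factor of macrophages, was at 0.539 and 1.67 CPM with PLDLS, 1.49 and 6.89 with PLASS and 0.79 and 3.98 with EV. It fell within both experiments (-1.30 and -1.98) while the groups overlapped, since PLDLS 2 lay above PLASS 1. TSPAN33 was at 0.719 and 1.11 CPM with PLDLS and 3.08 and 4.62 with PLASS, NDST3, a heparan sulfate enzyme, at 3.53 and 1.48 CPM with PLDLS and 10.3 and 9.895 with PLASS and IFIT5, an interferon-induced RNA-binding protein, at 0.779 and 0.928 CPM with PLDLS and 3.32 and 3.33 with PLASS. Differences of CSF1, TSPAN33, NDST3 and IFIT5 were -1.77 ± 0.35, -2.05 ± 0.34, -1.82 ± 0.33 and -1.95 ± 0.40 (adjusted p = 0.0447, 0.0218, 0.0319 and 0.0472). BCL2L2-PABPN1, a readthrough of neighbouring genes whose reads can be assigned to either of them, was at 1.32 and 0 CPM with PLDLS and 5.38 and 6.98 with PLASS. The size of its difference (-2.78 ± 0.55, adjusted p = 0.0409) is uncertain, since PLDLS 2 held no reads of it. It became -3.60 without PLASS 1, -9.81 without PLDLS 1 and -3.64 by DESeq2, which did not call it (adjusted p = 0.178).

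For these falling genes, calls ended without PLDLS 1 for MARCKS (0.0725), FLNC (0.0649) and SIGLEC1 (0.234), without PLDLS 2 for COL6A1 (0.0867), without PLASS 1 or PLDLS 1 for NOG (0.0664 to 0.408) and VNN2 (0.0661 to 0.0784), without PLASS 1 or PLDLS 2 for NDST3 (0.0661 to 0.0735), without PLASS 1, PLDLS 1 or PLDLS 2 for TSPAN33 (0.0824 to 0.127) and IFIT5 (0.142 to 0.407) and without any 1 of the 4 peptide libraries for CSF1 (0.0872 to 0.354). Calls also ended by DESeq2, by limma-voom, with the length offset or after thinning for BCL2L2-PABPN1, CSF1, IFIT5, NOG, NDST3 and TSPAN33 (adjusted p 0.0506 to 0.341). Without 1 library the difference of MARCKS became -2.19 (PLASS 1), that of SIGLEC1 -1.75 (PLDLS 1) and -3.31 (PLDLS 2), and those of NOG, COL6A1 and NDST3 -1.50, -2.51 and -2.87 (PLDLS 1). After thinning that of TSPAN33 was -1.23.

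**Figure D1:**
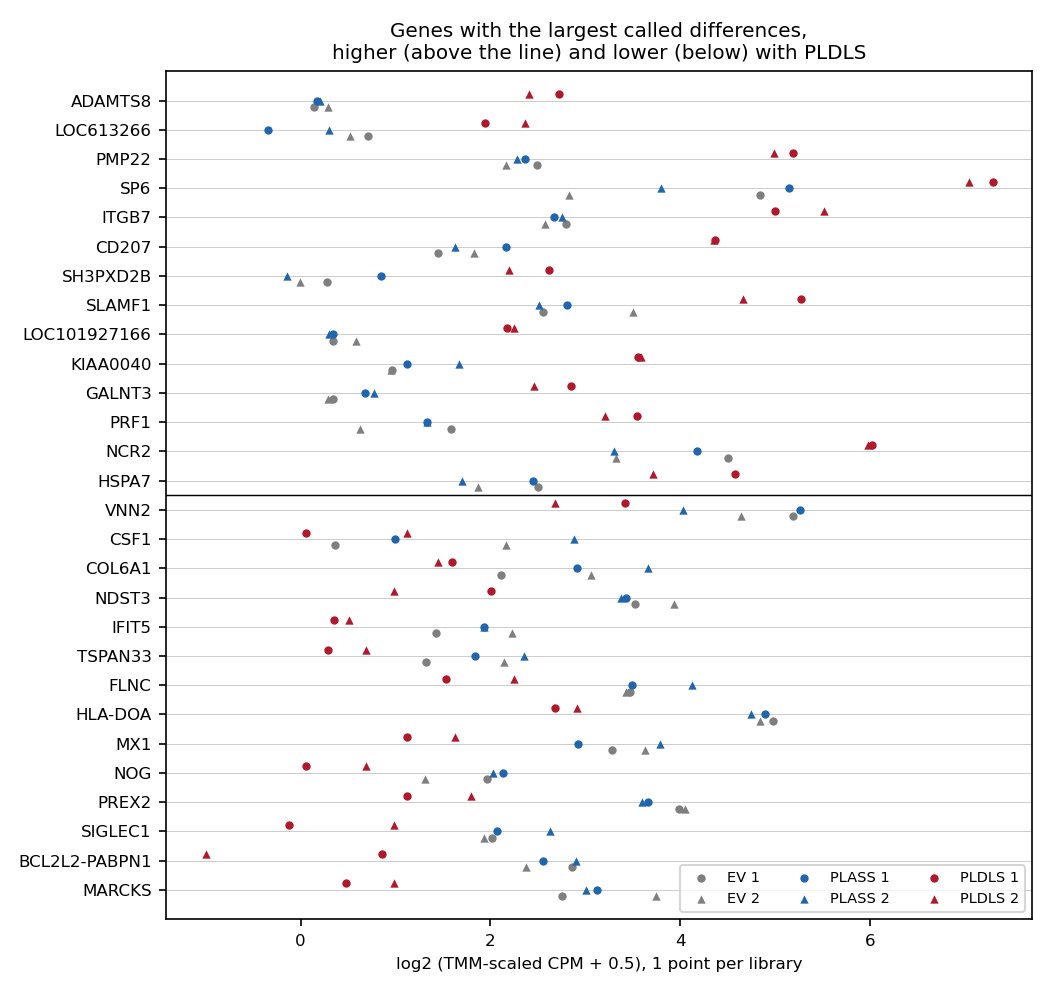
Level of the 14 genes with the largest rises (above the line) and the 14 with the largest falls (below it) in each library, as log2 of TMM-scaled CPM plus 0.5 on the x axis. Red points are PLDLS, blue PLASS and grey EV, with circles for experiment 1 and triangles for experiment 2; ITGB7 is at 31.5 and 45.5 CPM with PLDLS and 5.87 and 6.25 with PLASS.

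Among called genes with the most reads, the changes were smaller. CD44, the hyaluronan receptor of progenitors and leukocytes, was at 1180.0 and 1157 CPM with PLDLS, 570.3 and 809 with PLASS and 441 and 484 with EV, a log2 difference of 0.78 ± 0.16 (adjusted p = 0.0483). DUSP6, the phosphatase that dampens ERK signals, was at 728 and 661 CPM with PLDLS, 325 and 212 with PLASS and 294 and 172 with EV, and CD93, a receptor of myeloid and endothelial cells, at 738 and 539 CPM with PLDLS, 323 and 179 with PLASS and 317 and 124 with EV. In DUSP6 and CD93 both PLDLS libraries were above the other 4, with differences of 1.41 ± 0.17 and 1.40 ± 0.20 (adjusted p = 0.00851 and 0.0128). IQGAP2, a scaffold of the actin cytoskeleton, was at 449 and 596 CPM with PLDLS and 248 and 302 with PLASS, TSC22D1 at 404 and 340.1 CPM with PLDLS and 222 and 232 with PLASS and C3orf80 at 493 and 567 CPM with PLDLS and 262 and 400.3 with PLASS. These 3 rose by log2 0.92 ± 0.14, 0.71 ± 0.13 and 0.71 ± 0.14 (adjusted p = 0.0158, 0.035 and 0.0467). PRDX1, a peroxidase that removes hydrogen peroxide, was at 215 and 233 CPM with PLDLS, 453 and 438 with PLASS and 371 and 643 with EV, a difference of -0.999 ± 0.20 (adjusted p = 0.0415). NFATC2, a calcium-regulated transcription factor, was at 123 and 112 CPM with PLDLS and 185 and 181 with PLASS and DENND5A, a regulator of Rab proteins, at 89.5 and 81.8 CPM with PLDLS and 154 and 184 with PLASS. Their differences were -0.64 ± 0.12 and -0.96 ± 0.16 (adjusted p = 0.040 and 0.0207). PDGFA, a growth factor for mesenchymal cells, was at 34.1 and 151 CPM with PLDLS, 52.4 and 353 with PLASS and 36.1 and 204 with EV. Its level in experiment 2 was several times that in experiment 1 in all 3 groups, so that PLDLS and PLASS overlapped while both experiments moved down (-0.62 and -1.22, fitted -0.93 ± 0.16, adjusted p = 0.0254). Calls ended without PLASS 2 or PLDLS 2 for PDGFA (0.202 to 0.241), without PLASS 1, PLASS 2 or PLDLS 2 for IQGAP2 (0.0692 to 0.126) and DENND5A (0.0662 to 0.134), without PLASS 1, PLDLS 1 or PLDLS 2 for CD44 (0.0755 to 0.603) and PRDX1 (0.12 to 0.382) and without any 1 of the 4 peptide libraries for TSC22D1 (0.0948 to 0.569), C3orf80 (0.0934 to 0.651) and NFATC2 (0.227 to 0.452). Those of CD44 and C3orf80 also ended with upper-quartile scaling and with a minimum of 2 CPM in each peptide library, and that of CD44 with DESeq2 size factors (0.0510 to 0.0592).

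MECOM, which encodes EVI1, was at 605 and 519 CPM with PLDLS, 531 and 342 with PLASS and 129 and 88.2 with EV. Both peptide groups lay above both EV libraries, and PLDLS and PLASS overlapped, with a log2 difference of 0.40 ± 0.14 that did not pass (adjusted p = 0.295). CTBP1 was at 115 and 139.5 CPM with PLDLS and 120.3 and 146 with PLASS and its paralogue CTBP2 at 176 and 127 CPM with PLDLS and 162 and 131 with PLASS, with differences of -0.063 ± 0.13 and 0.04 ± 0.14 (adjusted p = 0.95 and 0.973). The sign for CTBP2 turned after thinning (-0.00082) and without PLDLS 1 (-0.11). Of 28 tested genes that encode CTBP, its partner enzymes or factors that hold it by such motifs, 1 was called higher and 0 lower. Over all tested genes 1.52% were called higher and 0.513% lower. The median log2 difference of these 28 was 0.045, beside -0.0063 over all tested genes. The gene called was ZEB2, a repressor that holds CTBP and acts in myeloid and dendritic cell fate, at 259.8 and 198 CPM with PLDLS, 95.7 and 134 with PLASS and 87.6 and 97.5 with EV. Both PLDLS libraries were above the other 4, at 1.01 ± 0.19 (adjusted p = 0.039), and calls in this list ended without PLASS 1 or PLDLS 1 for ZEB2 (0.237 to 0.427). SALL4 was at 0.77 ± 0.29 and not called (adjusted p = 0.33).

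Genes listed as transcription factors of myeloid cells moved both ways. Of 45 tested, 6 were called higher and 2 lower, beside 1.52% and 0.513% of all tested genes, and the median difference was 0.20. CEBPA, the factor that starts granulocyte differentiation, was at 163 and 235 CPM with PLDLS, 74.9 and 70.0 with PLASS and 116 and 87.5 with EV. CEBPE, which drives the later granules, was at 6.11 and 7.05 CPM with PLDLS, 2.55 and 2.76 with PLASS and 2.34 and 2.21 with EV. PLDLS lay above the other 4 libraries in both, and they rose by 1.45 ± 0.21 and 1.30 ± 0.25 (adjusted p = 0.0126 and 0.0396). GFI1B, a repressor of erythroid and megakaryocyte cells, was at 118 and 90.4 CPM with PLDLS, 50.2 and 17.4 with PLASS and 48.8 and 25.4 with EV, and its paralogue GFI1, a repressor in granulocyte precursors, at 43.4 and 42.3 CPM with PLDLS, 85.3 and 104 with PLASS and 103 and 66.6 with EV. The 2 paralogues went opposite ways, GFI1B by 1.76 ± 0.24 and GFI1 by -1.15 ± 0.21 (adjusted p = 0.011 and 0.0319). IRF8, the factor of monocyte and dendritic cell fate, was at 0.479 and 0.557 CPM with PLDLS, 2.404 and 4.299 with PLASS and 1.61 and 4.14 with EV, a difference of -2.50 ± 0.42 (adjusted p = 0.0222), with a mean under 2 CPM. After thinning it was -3.37. RUNX2 was at 9.29 and 7.05 CPM with PLDLS and 2.02 and 3.81 with PLASS and HOXA9, a homeobox factor of leukaemic self-renewal, at 159 and 74.03 CPM with PLDLS and 106 and 39.99 with PLASS. RUNX2 rose by 1.61 ± 0.33 and HOXA9 by 0.73 ± 0.14 (adjusted p = 0.0471 and 0.0387), with overlapping groups for HOXA9. SP6, given above, is the sixth that rose and has the highest difference of the list (2.76). The list was chosen with earlier results of these data known, so its count of calls is no independent result. The counts higher were 3, 5, 4 and 4 without PLASS 1, PLASS 2, PLDLS 1 and PLDLS 2 and 10 and 10 without EV 1 and EV 2, and those lower 1, 2, 0 and 0 without PLASS 1, PLASS 2, PLDLS 1 and PLDLS 2 and 5 and 5 without EV 1 and EV 2. Calls ended without PLASS 1 or PLDLS 1 for RUNX2 (0.423 to 0.547), without PLASS 1, PLDLS 1 or PLDLS 2 for IRF8 (0.0662 to 0.0964), without PLASS 2, PLDLS 1 or PLDLS 2 for GFI1 (0.0823 to 0.161) and without any 1 of the 4 peptide libraries for CEBPE (0.127 to 0.314) and HOXA9 (0.0733 to 0.319). Those of CEBPE, RUNX2 or HOXA9 also ended by DESeq2 or limma-voom, with upper-quartile scaling, with the length offset or after thinning (0.0510 to 0.268).

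Genes of neutrophil maturation and later granules had a fitted median that was the highest of the lists with more than 3 tested genes. Of 29 listed genes 18 were tested, and 13 of the tested had at least 2 CPM. Of the 18, 5 were called higher and 0 lower, beside 1.52% and 0.513% of all tested genes, and the median was 0.75. In both experiments 12 (66.7%) were higher and 1 (5.56%) lower, beside 30.4% and 31.4% of all tested genes. S100A8 and S100A9, the paired calcium-binding proteins of neutrophil and monocyte cytosol, were at 18.5 and 50.7 CPM with PLDLS, 6.39 and 9.41 with PLASS and 6.11 and 15.5 with EV and at 53.2 and 87.4 CPM with PLDLS, 20.4 and 27.7 with PLASS and 19.5 and 41.6 with EV. In each, both PLDLS libraries lay above the other 4, and the differences were 1.96 ± 0.24 and 1.51 ± 0.18 (adjusted p = 0.00851 and 0.00851). PADI4, which citrullinates histones, was at 49.1 and 59.7 CPM with PLDLS, 20.9 and 20.8 with PLASS and 26.2 and 17.6 with EV, and MGAM, an enzyme of tertiary granules, at 55.2 and 38.4 CPM with PLDLS and 31.4 and 24.3 with PLASS. They rose by 1.38 ± 0.21 and 0.74 ± 0.15 (adjusted p = 0.0179 and 0.0483), and CEBPE is the fifth gene. CHI3L1, S100A12 and HP had differences of 2.93, 1.92 and 1.79 that did not pass (adjusted p = 0.0651, 0.0612 and 0.0866). MMP9 at -0.40 was the 1 gene lower in both. Counts called higher were 2, 3, 3 and 2 without PLASS 1, PLASS 2, PLDLS 1 and PLDLS 2 and 9 and 8 without EV 1 and EV 2, and 4 by DESeq2. With 1 library left out, calls ended without PLASS 1 or PLDLS 2 for PADI4 (0.0674 to 0.0948) and without any 1 of the 4 peptide libraries for CEBPE (0.127 to 0.314) and MGAM (0.206 to 0.632), and that of MGAM also with upper-quartile scaling, with 2 CPM in each peptide library and after thinning (0.0510 to 0.0912).

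Of 11 tested genes in the list of primary granules, which are made at an earlier stage, 2 were called higher and 0 lower. Over all tested genes these shares were 1.52% and 0.513%. Differences in the list ran from -3.10 to 2.07. BPI and CTSG were at 1.22 ± 0.38 and 1.19 ± 0.42, neither called (adjusted p = 0.186 and 0.274). RNASE2, the eosinophil-derived neurotoxin, was at 3.59 and 11.7 CPM with PLDLS, 0.625 and 3.49 with PLASS and 0.79 and 3.87 with EV, and SERPINB1, an inhibitor of neutrophil proteases, at 98.7 and 125 CPM with PLDLS and 61.9 and 76.1 with PLASS. They differed by 2.07 ± 0.30 and 0.69 ± 0.13 (adjusted p = 0.0134 and 0.0319), and in RNASE2 the groups nearly met, since PLASS 2 was close to PLDLS 1. MPO, the main enzyme of these granules, went opposite ways in the 2 experiments and is described with other such genes in the closing part. Calls ended without PLDLS 1 for RNASE2 (0.051) and without any 1 of the 4 peptide libraries for SERPINB1 (0.144 to 0.412).

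A group formed after values were seen held the 11 genes with at least 2 CPM whose symbol begins with S and a digit, S100 genes among them. Of the 11, 5 were called higher and 0 lower, with a median of 0.77. Of all genes with at least 2 CPM, 2.25% were called either way. Those called are S100A4, S100A6, S100A8, S100A9 and S100A11, all on chromosome 1 and neighbours there among genes with at least 2 CPM. S100A4 was at 122 and 199.7 CPM with PLDLS, 64.1 and 61.3 with PLASS and 44.8 and 76.1 with EV, S100A6 at 4.79 and 5.57 CPM with PLDLS, 1.59 and 0.973 with PLASS and 1.79 and 1.27 with EV and S100A11 at 49.9 and 59.7 CPM with PLDLS and 27.8 and 37.2 with PLASS. In all 3 genes PLDLS lay above PLASS without overlap, with differences of 1.29 ± 0.20, 1.95 ± 0.33 and 0.77 ± 0.15 (adjusted p = 0.0182, 0.0253 and 0.039). The genes that follow were also named after their values were seen. ANXA1, the glucocorticoid-induced annexin of myeloid cells, was at 216 and 249 CPM with PLDLS, 37.5 and 84.9 with PLASS and 24.6 and 39.1 with EV, and ANXA2, a partner of S100 proteins, at 231 and 246 CPM with PLDLS and 116 and 154 with PLASS. ANXA1 rose by 2.04 ± 0.21 and ANXA2 by 0.85 ± 0.15 (adjusted p = 0.00574 and 0.0332). HPSE, the heparanase that cuts heparan sulfate, was at 124 and 65.1 CPM with PLDLS, 27.5 and 14.03 with PLASS and 24.3 and 8.73 with EV, a difference of 2.19 ± 0.18 (adjusted p = 0.00409). ESAM and HEG1, proteins of cell junctions, were at 25.6 and 25.05 CPM with PLDLS and 6.44 and 5.92 with PLASS and at 11.6 and 14.3 CPM with PLDLS and 3.41 and 4.704 with PLASS, and RHOH, a GTPase of blood cells, at 37.7 and 38.8 CPM with PLDLS and 15.5 and 7.87 with PLASS. They rose by 2.03 ± 0.19, 1.69 ± 0.21 and 1.74 ± 0.24 (adjusted p = 0.00474, 0.00851 and 0.0113). With 1 library left out, calls ended without PLASS 2 or PLDLS 2 for S100A4 (0.069 to 0.0795), without PLASS 1, PLASS 2 or PLDLS 1 for ANXA2 (0.129 to 0.27), without PLASS 1, PLASS 2 or PLDLS 2 for S100A6 (0.0588 to 0.0854) and without any 1 of the 4 peptide libraries for S100A11 (0.137 to 0.459). After thinning, those of S100A6 and S100A11 ended too (0.149 and 0.0551).

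Genes listed for monocytes and macrophages gave 3 calls higher and 1 lower of 24 tested, beside 1.52% and 0.513% of all tested genes. Their median was -0.13, which ran from -0.18 to 0.14 with 1 library left out. FCGR2A, an activating receptor for IgG, was at 38.3 and 28.9 CPM with PLDLS, 8.32 and 9.33 with PLASS and 8.796 and 8.07 with EV, and its inhibiting neighbour FCGR2B, named after its values were seen, at 33.1 and 25.8 CPM with PLDLS, 11.7 and 7.95 with PLASS and 10.03 and 10.7 with EV. Both rose, by 1.94 ± 0.20 and 1.58 ± 0.20 (adjusted p = 0.00574 and 0.00976). They are close in sequence, so reads may have been split between them. ADGRE1, the human counterpart of the mouse macrophage marker F4/80, was at 28.3 and 70.9 CPM with PLDLS, 9.47 and 20.4 with PLASS and 11.2 and 19.7 with EV, and rose in both experiments alike (1.57 and 1.79, fitted 1.69 ± 0.18, adjusted p = 0.00603). CD36, a scavenger receptor for lipids, was at 75.5 and 51.03 CPM with PLDLS, 45.05 and 24.01 with PLASS and 49.1 and 23.7 with EV and differed by 0.91 ± 0.17 (adjusted p = 0.0319). SIGLEC1 fell, as given above, and CSF1R, the receptor of macrophage growth factor, was at -0.19 and not called (adjusted p = 0.746). Calls ended without PLDLS 1 for FCGR2B (0.0549) and without any 1 of the 4 peptide libraries for CD36 (0.051 to 0.213).

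Genes of dendritic and Langerhans cells gave 1 call higher, CD207, and 3 lower of 22 tested, beside 1.52% and 0.513% of all tested genes. The median was -0.44, and 13 were lower and 4 higher in both experiments, beside 4599 and 4450 of all 14630 genes. LTB, the lymphotoxin beta chain, was at 18.99 and 38.8 CPM with PLDLS, 63.8 and 77.9 with PLASS and 44.6 and 109.5 with EV and CD83, a protein of mature dendritic cells, at 17.9 and 60.5 CPM with PLDLS, 36.97 and 135 with PLASS and 23.6 and 155 with EV. They fell, at log2 differences of -1.41 ± 0.23 and -1.10 ± 0.22 (adjusted p = 0.0217 and 0.0471), and IRF8 is the third gene lower. CD83 was several times higher in experiment 2 in all groups, and its PLDLS and PLASS values overlapped. CD1A, a lipid-presenting protein that with CD207 marks Langerhans cells, was at -0.79 and CD1C at -0.57, neither called (adjusted p = 0.179 and 0.442). The count lower was 0, 4, 0 and 1 without PLASS 1, PLASS 2, PLDLS 1 and PLDLS 2 and 5 and 4 without EV 1 and EV 2. Calls ended without PLASS 1 or PLDLS 1 for LTB (0.127 to 0.144) and without PLASS 1, PLDLS 1 or PLDLS 2 for CD83 (0.0549 to 0.285), and that of CD83 by limma-voom and with the length offset (0.0506 to 0.0626).

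Of 18 tested MHC class II genes, 0 were called higher and 2 lower, HLA-DOA and HLA-DQA1, beside 1.52% and 0.513% of all tested genes. In both experiments 11 (61.1%) were lower and 0 higher, beside 31.4% and 30.4% of all tested genes. HLA-DQA1 was at 19.4 and 29.1 CPM with PLDLS, 42.02 and 45.6 with PLASS and 35.2 and 54.2 with EV, with a difference of -0.90 ± 0.18 (adjusted p = 0.0421). HLA-DQB1 was at -0.51 ± 0.14 and RFX5, a factor that drives class II promoters, at -0.46 ± 0.12, neither called (adjusted p = 0.15 and 0.131). CIITA, the master regulator of class II, was at -0.38 (adjusted p = 0.599) and HLA-DRA at -0.28 (adjusted p = 0.740), not called. The list median was -0.19. Of 14 class I genes 0 were called higher and 1 lower, beside 1.52% and 0.513% of all tested genes. That was HLA-B, at 45.6 and 66.4 CPM with PLDLS and 95.5 and 111 with PLASS, a difference of -0.91 ± 0.16 (adjusted p = 0.0264). HLA-E was at -0.34 ± 0.15 and TAPBP at -0.34 ± 0.12, neither called (adjusted p = 0.433 and 0.276). HLA genes are close in sequence and vary between people and lines, so their counts are uncertain. Class II calls were 1, 2, 1 and 1 without PLASS 1, PLASS 2, PLDLS 1 and PLDLS 2 and 4 and 4 without EV 1 and EV 2, and calls ended without PLASS 1, PLDLS 1 or PLDLS 2 for HLA-DQA1 (0.112 to 0.623) and HLA-B (0.0982 to 0.414). That of HLA-DQA1 also ended by limma-voom (0.0515).

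NF-kB components and inflammatory genes had a fitted median of -0.74, which ran from -0.84 to -0.40 with 1 library left out. Of 32 tested, 7 were called lower and 0 higher, beside 0.513% and 1.52% of all tested genes. In both experiments 21 (65.6%) were lower and 2 (6.25%) higher, beside 31.4% and 30.4% of all tested genes. Among the subunits, REL was at 69.8 and 84.4 CPM with PLDLS, 106 and 169.8 with PLASS and 98.5 and 161 with EV, RELB at 29.7 and 38.04 CPM with PLDLS, 64.9 and 63.9 with PLASS and 54.7 and 84.1 with EV and NFKB2 at 57.99 and 47.9 CPM with PLDLS, 107 and 91.6 with PLASS and 89.2 and 119 with EV. PLDLS lay below PLASS without overlap in all 3, at -0.79 ± 0.15, -0.95 ± 0.18 and -0.90 ± 0.18 (adjusted p = 0.0336, 0.0346 and 0.0466). NFKB1 was at -0.75 and RELA at -0.047, neither called (adjusted p = 0.110 and 0.966). Among targets and receptors, TNF was at 3.65 and 4.08 CPM with PLDLS, 7.404 and 13.8 with PLASS and 5.11 and 10.9 with EV and CD40, the receptor by which T cells activate antigen-presenting cells, at 5.75 and 5.195 CPM with PLDLS, 19.04 and 16.9 with PLASS and 12.5 and 26.3 with EV. They fell, at -1.30 ± 0.26 and -1.67 ± 0.32 (adjusted p = 0.0447 and 0.0397). ICAM1, the ligand of leukocyte integrins, was at 51.5 and 155 CPM with PLDLS, 92.98 and 292 with PLASS and 73.5 and 307 with EV. It was 3-fold or more higher in experiment 2 than in experiment 1 in each group, so that the groups overlapped, and it was at -0.85 and -0.91 within the experiments (fitted -0.88 ± 0.15, adjusted p = 0.0246). CD83, given above, is the seventh gene. NFKBIA, the inhibitor induced by the pathway itself, was at -1.32 and BIRC3 at -1.995 ± 0.51, neither called (adjusted p = 0.0515 and 0.107). BIRC3 became -3.02 without PLDLS 1, where it was called (0.047), and -1.34 without PLDLS 2, and 7 of the 15 other fits with the block called it. The chemokines CXCL8, CXCL1 and CCL3 were at 0.020, 0.19 and 0.20, not called. The count lower was 0, 9, 7 and 0 without PLASS 1, PLASS 2, PLDLS 1 and PLDLS 2 and 18 and 17 without EV 1 and EV 2, 12 by DESeq2 and 4 by limma-voom. With 1 library left out, calls ended without PLASS 1, PLASS 2 or PLDLS 2 for REL (0.141 to 0.25) and TNF (0.0906 to 0.245) and without PLASS 1, PLDLS 1 or PLDLS 2 for RELB (0.112 to 0.496), NFKB2 (0.0853 to 0.44), CD40 (0.0872 to 0.219) and ICAM1 (0.0649 to 0.244), and those of NFKB2, TNF and CD40 also by limma-voom, with the length offset or, for TNF, after thinning (0.0506 to 0.0793).

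Interferon-stimulated genes moved both ways, with 2 of 34 called higher, 4 lower and a median of -0.17. Over all tested genes 1.52% were called higher and 0.513% lower. MX1, a GTPase that blocks viruses, was at 1.68 and 2.598 CPM with PLDLS, 7.07 and 13.3 with PLASS and 9.22 and 11.9 with EV. PLDLS lay below the other 4 libraries, at -2.22 ± 0.26 (adjusted p = 0.00837). IFI6 was at 4.31 and 6.68 CPM with PLDLS and 8.37 and 14.8 with PLASS and XAF1 at 3.71 and 3.71 CPM with PLDLS and 7.88 and 8.76 with PLASS, and they fell, at -1.03 ± 0.21 and -1.17 ± 0.24 (adjusted p = 0.0475 and 0.0471); IFIT5 is the fourth. RSAD2, which encodes the antiviral enzyme viperin, was at 75.1 and 59.9 CPM with PLDLS, 42.5 and 39.01 with PLASS and 42.7 and 34.4 with EV, and CMPK2, which overlaps it on chromosome 2, at 91.4 and 54.9 CPM with PLDLS, 60.9 and 30.7 with PLASS and 60.1 and 34.3 with EV. This pair rose by 0.72 ± 0.14 and 0.70 ± 0.14 (adjusted p = 0.0409 and 0.0447). The libraries are not stranded, so reads where the 2 genes overlap cannot be told apart. The counts higher were 0, 0, 0 and 0 without PLASS 1, PLASS 2, PLDLS 1 and PLDLS 2 and 2 and 2 without EV 1 and EV 2, and those lower 1, 2, 1 and 1 without PLASS 1, PLASS 2, PLDLS 1 and PLDLS 2 and 9 and 9 without EV 1 and EV 2. Calls ended without any 1 of the 4 peptide libraries for IFI6 (0.116 to 0.301), XAF1 (0.107 to 0.323), RSAD2 (0.155 to 0.621) and CMPK2 (0.181 to 0.478), and also by DESeq2 or limma-voom, with upper-quartile scaling, with 2 CPM in each peptide library, with the length offset or after thinning for 1 or more of these 4 (0.0505 to 0.262).

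Cell cycle genes had small negative differences, and nearly all missed the threshold. Of 35 genes of G2/M and mitosis, 28 (80.0%) had lower values in both experiments and 0 higher, with a median of -0.47. Over all tested genes 31.4% were lower and 30.4% higher in both. In this list 1 gene was called lower, beside 0.513% of all tested genes. That was CCNB1, cyclin B1, at 84.3 and 68.5 CPM with PLDLS, 143 and 104 with PLASS and 129 and 104 with EV, a difference of -0.69 ± 0.12 (adjusted p = 0.0331). TOP2A was at -0.57 ± 0.13, BUB1 at -0.62 ± 0.13 and HMMR at -0.72 ± 0.17, none called (adjusted p = 0.0827, 0.0566 and 0.0788). The list's median was -0.67 in experiment 1 and -0.25 in experiment 2. Of 40 DNA replication genes 31 (77.5%) were lower in both and 0 higher, beside 31.4% and 30.4% of all tested genes. Their median was -0.25, with no call by edgeR, DESeq2 or limma-voom with the block (11 at an unadjusted p under 0.05 by edgeR). CDC6, which licenses origins, was at -0.46 ± 0.13, and the helicase gene MCM2 at -0.36 ± 0.13. Counts called lower in the G2/M list were 0, 0, 0 and 0 without PLASS 1, PLASS 2, PLDLS 1 and PLDLS 2 and 20 and 18 without EV 1 and EV 2, and 5 by DESeq2. In the replication list 5 and 3 were called lower without EV 1 and EV 2. The call ended without any 1 of the 4 peptide libraries for CCNB1 (0.136 to 0.507).

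Receptors and effectors shared with natural killer cells rose in part. Of 18 tested, 4 were called higher and 0 lower, beside 1.52% and 0.513% of all tested genes, with a median of 0.50. SLAMF1, PRF1 and NCR2 were given above, and SLAMF6, a self-binding SLAM receptor, was at 65.2 and 45.6 CPM with PLDLS, 30.7 and 20.1 with PLASS and 31.1 and 16.02 with EV, a rise of 1.13 ± 0.17 (adjusted p = 0.0155). The T cell markers were near 0, with summed levels of 2.41 to 2.46 CPM with PLDLS and 1.22 to 1.92 with PLASS. Of the 5 measured T cell markers CD3E was lower with PLDLS (0.719 and 0.186 CPM with PLDLS and 1.25 and 0.973 with PLASS), and CD2, CD3G and CD8A were higher, at 0.120 to 1.30 CPM with PLDLS and 0 to 0.337 with PLASS. CD3D was at 0 in all but PLDLS 1 (0.539). Of 19 mast cell, basophil and eosinophil genes 3 were called higher and 0 lower, beside the same shares of all tested genes. Their median was 0.40. HDC, which makes histamine, was at 21.3 and 56.2 CPM with PLDLS, 8.89 and 17.3 with PLASS and 10.1 and 15.9 with EV, SIGLEC6, a sialic acid receptor of mast cells, at 39.2 and 52.9 CPM with PLDLS, 10.4 and 14.2 with PLASS and 13.4 and 12.3 with EV, and RNASE2 is the third. HDC and SIGLEC6 rose by 1.49 ± 0.21 and 1.91 ± 0.20 (adjusted p = 0.0123 and 0.00574). The related SIGLEC5 and SIGLEC12, near SIGLEC6 on chromosome 19 and named after their values were seen, were at 21.3 and 23.8 CPM with PLDLS and 10.2 and 7.38 with PLASS and at 11.5 and 14.1 CPM with PLDLS and 4.66 and 5.84 with PLASS. These rose by 1.36 ± 0.26 and 1.28 ± 0.24 (adjusted p = 0.035 and 0.0336), and reads may be split among such paralogues. Counts called higher in the NK receptor list were 2, 4, 3 and 3 without PLASS 1, PLASS 2, PLDLS 1 and PLDLS 2 and 8 and 5 without EV 1 and EV 2. Calls ended without PLDLS 2 for HDC (0.0693), without PLASS 1 or PLDLS 2 for SLAMF6 (0.0906 to 0.134), without PLASS 1, PLASS 2 or PLDLS 2 for SIGLEC5 (0.0547 to 0.176) and without PLASS 1, PLDLS 1 or PLDLS 2 for SIGLEC12 (0.0872 to 0.266).

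Integrins gave 2 calls higher and 0 lower of 20, beside 1.52% and 0.513% of all tested genes, with a median of 0.23. Beside ITGB7, ITGA9, a subunit of neutrophil adhesion, was at 140.4 and 145 CPM with PLDLS, 70.1 and 58.2 with PLASS and 84.98 and 55.4 with EV, a rise of 1.16 ± 0.17 (adjusted p = 0.0134). ITGAM, the CD11b subunit of neutrophils and monocytes, was at 0.77 ± 0.24 and not called (adjusted p = 0.195). The call ended without PLASS 1 or PLDLS 2 for ITGA9 (0.0586 to 0.0693). Beside 1.52% and 0.513% of all tested genes, 1 of 28 in the stem and progenitor list was called higher, HOXA9, and 1 lower. The latter was HLF, a factor of blood stem cells, at 46.1 and 28.4 CPM with PLDLS, 115 and 52.7 with PLASS and 166 and 81.3 with EV, a difference of -1.12 ± 0.15 (adjusted p = 0.0104). MLLT3 was at -0.68 ± 0.15 and TRIM71 at 0.55 ± 0.14, neither called (adjusted p = 0.063 and 0.107). Of 35 tested cytokine receptor and JAK-STAT genes 0 were called higher and 1 lower, beside the same shares of all tested genes. That was IL7R, the receptor of interleukin 7, at 89.6 and 34.1 CPM with PLDLS, 190.2 and 108 with PLASS and 149 and 115 with EV. Its difference was -1.32 ± 0.21 (adjusted p = 0.0201). IL9R and IL17RE, receptors outside the list and named after their values were seen, were called higher, at 1.61 ± 0.19 and 1.16 ± 0.20 (adjusted p = 0.00757 and 0.0263). The call of IL9R held in all 15 other fits with the block, and that of IL17RE in 12 of the 15. Calls ended without PLDLS 2 for IL7R (0.0606) and without PLASS 1 or PLDLS 1 for HLF (0.0883 to 0.0988).

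Of 31 glycolysis and hypoxia genes 3 were called higher and 0 lower, beside 1.52% and 0.513% of all tested genes, with a median of 0.092. SLC2A3, the glucose transporter GLUT3, was at 111 and 148 CPM with PLDLS, 49.5 and 62.4 with PLASS and 53.5 and 44.3 with EV, NDRG1, induced by low oxygen, at 131 and 170.0 CPM with PLDLS and 60.9 and 113 with PLASS and the hexokinase HK1 at 144 and 149 CPM with PLDLS and 84.9 and 92.3 with PLASS. They rose by 1.21 ± 0.18, 0.85 ± 0.15 and 0.73 ± 0.13 (adjusted p = 0.0151, 0.0295 and 0.0335). In cholesterol and fatty acid synthesis 2 of 29 were called higher and 1 lower, beside 1.52% and 0.513% of all tested genes. SQLE, which oxidises squalene, was at 285 and 329.7 CPM with PLDLS and 149 and 223 with PLASS, ELOVL6, which lengthens fatty acids, at 5.57 and 10.8 CPM with PLDLS and 2.16 and 2.51 with PLASS and SREBF1, a factor that switches on this pathway, at 68.4 and 74.4 CPM with PLDLS and 102 and 182 with PLASS. SQLE and ELOVL6 rose by 0.75 ± 0.14 and 1.71 ± 0.34, and SREBF1 fell, at -0.94 ± 0.18 (adjusted p = 0.0327, 0.0423 and 0.0409). Of 34 oxidative phosphorylation genes 0 were called by edgeR, DESeq2 or limma-voom with the block (1 at an unadjusted p under 0.05 by edgeR). In both experiments 19 (55.9%) were higher and 4 (11.8%) lower, beside 30.4% and 31.4% of all tested genes. Calls ended without PLASS 1 or PLDLS 1 for NDRG1 (0.209 to 0.474), without PLASS 1 or PLDLS 2 for SLC2A3 (0.0801 to 0.0821), without PLASS 1, PLASS 2 or PLDLS 2 for ELOVL6 (0.0656 to 0.20), without PLASS 2, PLDLS 1 or PLDLS 2 for SREBF1 (0.0662 to 0.414) and without any 1 of the 4 peptide libraries for HK1 (0.133 to 0.487) and SQLE (0.0735 to 0.534), and those of ELOVL6 and SREBF1 also by limma-voom and, for ELOVL6, with the length offset or after thinning (0.0506 to 0.0660).

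Few calls fell in the remaining lists, whose counts stand beside 1.52% of all tested genes called higher and 0.513% called lower. SMAD3, which carries TGF-beta signals, fell with NOG among 32 genes of that pathway, at 32.05 and 38.4 CPM with PLDLS and 52.8 and 62.1 with PLASS, a difference of -0.71 ± 0.14 (adjusted p = 0.0409). ATF5, of the stress response, was the 1 gene called of 28, at 17.4 and 16.3 CPM with PLDLS and 29.8 and 35.6 with PLASS, a difference of -0.92 ± 0.17 (adjusted p = 0.035). DUSP6 was the 1 gene called of 31 immediate early genes, and FOSL2 was at 1.12 ± 0.25 and not called (adjusted p = 0.0651). DESeq2 called 2 higher and 1 lower in this list, FOSL2 among them (0.000195), and 7 of the 15 other fits with the block called FOSL2. HSPA7, a transcribed pseudogene, was the 1 member called of 17 in the heat shock list. With edgeR and the block 0 genes were called among 29 MYC and ribosome genes, 25 p53 targets, 29 apoptosis regulators and 17 erythroid and megakaryocyte genes. At an unadjusted p under 0.05 these counts were 1, 1, 6 and 2, and DESeq2 called 0, 0, 1 and 1. The epithelial, T cell and B cell lists had 3, 2 and 3 tested members with 0 called (0, 0 and 1 at an unadjusted p under 0.05; 0 by DESeq2), and the fibroblast list had 0 tested. NFE2 was at 1.36 ± 0.33 (adjusted p = 0.0928), 2.11 without PLDLS 1 (called, 0.00947), 0.73 without PLDLS 2 and 1.41 by DESeq2 (called, 0.00191). BMF was at 0.94 ± 0.22 (adjusted p = 0.0827) and MDM2 at -0.27 ± 0.18 (adjusted p = 0.716). Calls ended without any 1 of the 4 peptide libraries for SMAD3 (0.21 to 0.453) and ATF5 (0.0788 to 0.242). With 1 library left out, the sign of the list median turned for the corepressor, monocyte, immediate early, MYC, oxidative phosphorylation, heat shock, p53, erythroid, epithelial and apoptosis lists, and scaling by upper quartile or DESeq2 size factors turned that of the apoptosis list.

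Called genes were spread over the chromosomes, from 1 of the genes on chromosome 22 (0.316%) to 15 on chromosome 15 (3.65%) and 37 on chromosome 1 (3.01%), beside 2.25% over all genes with at least 2 CPM. By type, 264 of the 272 were protein-coding, of 11118, and 5 were long non-coding RNAs, of 628. Of 12035 pairs of adjacent genes with at least 2 CPM, 21 had both genes called, 17 in the same direction and 4 in opposite directions, and 12 of the 17 lay within 100000 bases of each other. Those named above are the S100 genes, FCGR2A, HSPA7 and FCGR2B, the SIGLEC genes, RSAD2 with CMPK2 and COL6A1 with COL6A2, and TNF adjoins LTB. GCOM1 and MYZAP, a readthrough gene and a gene inside it on chromosome 15, rose by 1.88 ± 0.16 and 1.37 ± 0.17 and share exons, so they are not 2 independent calls.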

How the data were processed

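The submitters deposited 1 table per library of poly-A RNA-seq, with the estimated count, TPM and effective length of each transcript, as deposited by the authors per the file headers. Salmon 0.3.1, bcl2fastq 1.8.4 and hg38 are named in the submitters' processing notes, and libraries were not stranded, per the series' design text. The TPM values deposited by the authors weighted the transcript lengths for the length offset. Levels given here are CPM. Of 69004 transcripts, 99.4% were given a gene name from RefSeq or GENCODE tables. The deposited estimated counts were summed over 27721 genes and rounded.

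edgeR 4.0.16 (R 4.3.3) fitted the 6 libraries by group with the experiment as a block (quasi-likelihood test, TMM scaling, filterByExpr, Benjamini-Hochberg over 14630 genes, threshold 0.05). SE is the log2 difference divided by the square root of its F value. Differences within an experiment used log2 CPM with a prior count of 2. The block follows the experiment number in the deposited tables. Differences between replicates correlated across 12078 genes at r = 0.633 for PLDLS with PLASS, 0.493 for PLDLS with EV and 0.611 for PLASS with EV. The biological coefficient of variation was 0.130 with the block and 0.236 without, at 2 and 3 residual degrees of freedom. No replicates agreed within sampling noise, so each was counted as its own library.

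Genes were named by rule: the 14 largest differences each way among called genes, the 6 with most reads each way, up to 4 members of each of 32 lists with the smallest p and all called up to 8, MECOM, CTBP1 and CTBP2, and 5 genes of at least 10 CPM with opposite signs. Members and lists were chosen with earlier results of these data known, and some genes after their values were seen, as marked. A few genes that the rule names are not reported here. Lists were counted and not tested. Alternatives used DESeq2 1.42.0, limma 3.58.1 (voom), other scalings and filters, a length offset, thinning and left-out libraries. Intervals from depth are not given, since reads were not tagged with molecular identifiers.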

Additional observations from a re-analysis of the deposited data

Results flagged for a closer look

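The 5 genes with at least 10 CPM whose difference of PLDLS from PLASS had opposite signs in the 2 experiments, with the largest smaller value, are given here. Each experiment holds 1 library per group, so the difference between experiments was not tested. RN7SL1 and RN7SL2, near-identical genes of the signal recognition particle RNA whose counts are uncertain, went down and then up. RN7SL2 differed by -1.57 in experiment 1 and 1.64 in experiment 2, and RN7SL1 by -1.50 and 1.87. RN7SL2 was at 8.21 and 18.4 CPM with PLDLS, 24.6 and 5.84 with PLASS and 7.51 and 26.96 with EV, and RN7SL1 at 7.55 and 17.8 CPM with PLDLS, 21.5 and 4.79 with PLASS and 6.03 and 30.5 with EV. TM4SF1, a tetraspanin-like membrane protein, was at 23.4 and 9.09 CPM with PLDLS, 7.98 and 18.9 with PLASS and 3.95 and 15.4 with EV, and differed by 1.54 in experiment 1 and -1.05 in experiment 2. KLF9, a transcription factor induced by glucocorticoids, was at 20.1 and 40.3 CPM with PLDLS, 12.2 and 64.7 with PLASS and 15.5 and 35.6 with EV, and differed by 0.72 and -0.68. MPO, the myeloperoxidase of primary granules, was at 79.1 and 78.5 CPM with PLDLS, 49.4 and 147 with PLASS and 54.7 and 82.05 with EV, and differed by 0.68 and -0.90. Fitted over both experiments these genes were not called (adjusted p from 0.837 to 0.993 by edgeR with the block). Some were called with 1 library left out, with opposite signs. RN7SL1 was at 2.22 without PLASS 1 (adjusted p = 0.00965) and -1.79 without PLASS 2 (0.00416), RN7SL2 at 1.85 (0.0164) and -1.76 (0.00279) in the same order, and TM4SF1 at 1.73 without PLDLS 2 (0.0209).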

How the results depend on the processing

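The experiment was a block in the reported fit, from the pairing given in the processing, and counts here are of genes with at least 2 CPM unless another minimum is named (202 higher and 70 lower as reported). With no replicate block edgeR called 0 higher and 0 lower, with 721 of 14630 genes at an unadjusted p under 0.05. In the 4 peptide libraries only, the count was 686 higher and 373 lower with the block and 0 and 0 without the block, with 797 at an unadjusted p under 0.05. Chosen after seeing the data, DESeq2 without the block called 90 and 23, and limma-voom without the block 0 and 0, with 700 at an unadjusted p under 0.05. With no filter on low counts the numbers were 367 and 165. With 1 library left out they ran from 66 to 663 higher and from 21 to 353 lower. Such a fit leaves 1 residual degree of freedom and assumes that a lone library varies like the others. With a peptide library left out, it also draws the experiment difference in part from the 2 EV libraries, whose vectors differ. The cause of the changes was not tested. DESeq2 with the block (272 and 103), limma-voom (186 and 48), DESeq2 size factors (197 and 72), upper-quartile scaling (181 and 77), 2 CPM in each peptide library (168 and 52), the length offset (206 and 77), thinning to the shallowest library (212 and 78) and minimums of 1 CPM (213 and 75) and 5 CPM (187 and 58) stayed within 1.5 times. Of 1495 values of the 101 named genes that were called, under alternatives with the block, 1252 kept their side of the threshold, 243 lost it and 0 changed sign. The sign turned for genes that were not called: after thinning, CD79A was at -0.084, CD79B at 0.23 and CTBP2 at -0.00082. It also turned with 1 library left out for CDH1 (from -1.04 without PLASS 1, with -0.54 without PLDLS 1, to 1.17 without PLASS 2), CTBP2 (from -0.11 without PLDLS 1 to 0.17 without PLDLS 2), KRT18 (from -0.43 without PLASS 1 to 0.64 without PLASS 2) and MDM2 (from -0.60 without PLASS 1 to 0.084 without PLASS 2). The 5 genes with opposite signs in the experiments also turned sign with 1 library left out. Of 72 named genes not called, 35 were called by at least 1 other fit with the block, 19 of these only without an EV library, in the 4 peptide libraries or with no filter, and 10 by DESeq2. PLDLS 2, with the fewest reads, limits the precision of low genes.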
